A study of Mus musculus with 13 samples.

Results

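Cish, Socs1, Socs2, Socs3, Bcl2, Bcl2l1, Mcl1, Pim1, Pim2 and Osm are genes known as targets of the transcription factor STAT5. They were taken by name, as feedback inhibitors and survival genes, from a table of 21073 genes, and all 10 were present in it. The table covers 13 mRNA-seq libraries of mouse cells. The mice, labelled C57BL/6J, had been immunized with the myelin peptide MOG35-55 in CFA, an adjuvant, which induces EAE (experimental autoimmune encephalomyelitis), used to model multiple sclerosis. Cells were collected at day 14 in every group.

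The libraries formed 7 groups. The 10 T cell libraries came from spleen and lymph node cells of mice that had received no pertussis toxin. These cells were expanded for 3 days with the peptide under Th17 conditions, and CD4+ T cells were then sorted. They comprised WT (n = 2) and DKI cells (n = 2), and, as another set of cultures, DKI cells without CCL17 (n = 3) and DKI cells with CCL17 (n = 3), a chemokine ligand of CCR4. The 3 myeloid libraries came from DKI mice with EAE, for which pertussis toxin was also given. They were bone marrow monocytes, spinal cord monocytes and spinal cord monocyte-derived antigen-presenting cells (APCs), with 1 library each. DKI mice carry knock-in alleles of both Stat5 genes whose proteins form dimers and no tetramers, so every group except WT carried them, and the myeloid cells had no WT counterpart. The sources used here do not give the number of animals behind a library, the sort gates or the amount of CCL17. Where libraries came from the same animals, the p-values below measure only the spread between these libraries, which may be technical.

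STAT5 is activated when a cytokine receptor and its JAK kinases phosphorylate it, as after IL-2, IL-7 or GM-CSF. STAT5 dimers bind a short palindromic DNA motif called a GAS, and tetramers form where dimers on neighbouring motifs join through their N-terminal domains. Cish and the Socs genes encode SH2-domain proteins that STAT signalling induces and that in turn damp the receptor or its JAK kinase. BCL2, BCL-XL (Bcl2l1) and MCL1 hold back the mitochondrial step of cell death, PIM1 and PIM2 are serine/threonine kinases whose activity follows their abundance, and oncostatin M (Osm) is a secreted cytokine of the IL-6 family.

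The promoters of the members are shown first, since tetramers form on neighbouring GAS motifs. RefSeq windows on build GRCm38.p6, from 250 bases before to 50 after an annotated start, were held for 8 of the 10 members (11 windows; Socs2 and Osm had no entry). The letters TTCNNNGAA, which are their own reverse complement and so need 1 strand only, occurred in the windows of 2 members. Cish held 2 matches that started 11 bases apart, and Socs3 held 1. Socs1 is shown beside them as a feedback gene with no match. The capitals mark the matches, and each sequence runs 5′ to 3′ on the strand of its gene.

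Cish: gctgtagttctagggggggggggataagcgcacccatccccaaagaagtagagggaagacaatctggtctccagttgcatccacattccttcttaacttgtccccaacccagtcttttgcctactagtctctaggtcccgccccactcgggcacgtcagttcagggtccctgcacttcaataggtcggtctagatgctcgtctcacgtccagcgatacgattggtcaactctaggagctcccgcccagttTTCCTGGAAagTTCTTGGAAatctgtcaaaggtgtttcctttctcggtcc

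Socs3: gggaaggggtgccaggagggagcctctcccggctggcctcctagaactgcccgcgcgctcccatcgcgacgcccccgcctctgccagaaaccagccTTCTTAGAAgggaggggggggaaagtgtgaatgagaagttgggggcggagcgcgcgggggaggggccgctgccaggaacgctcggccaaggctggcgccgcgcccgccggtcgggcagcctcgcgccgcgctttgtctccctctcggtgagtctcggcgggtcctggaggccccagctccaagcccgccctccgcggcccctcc

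Socs1: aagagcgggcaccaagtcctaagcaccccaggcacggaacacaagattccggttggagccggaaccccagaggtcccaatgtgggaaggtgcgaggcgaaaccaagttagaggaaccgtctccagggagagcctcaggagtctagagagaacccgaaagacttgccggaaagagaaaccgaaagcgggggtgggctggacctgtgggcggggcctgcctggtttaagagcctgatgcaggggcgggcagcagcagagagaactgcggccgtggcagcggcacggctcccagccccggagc

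The Cish window lies at chr9:107296409-107296708 on the plus strand, and the Cish gene at chr9:107296659-107302784. Its matches TTCCTGGAA and TTCTTGGAA had their first bases at positions 1 and 12, counted from the annotated start as 1, so both lay in the transcribed part of the window. The Socs3 window lies at chr11:117969317-117969616 on the minus strand, within a gene annotated at chr11:117966079-117970336, and its match TTCTTAGAA began 154 bases before the start. The Socs1 window lies at chr16:10785487-10785786 on the minus strand, and spans the start of the gene at chr16:10783808-10785536.

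Other promoters hold these letters too. Of all 32851 windows in the table, 8.30% held at least 1 match and 0.457% held 2 or more. Counted by gene, as the members are, the shares were 9.55% and 0.54% of 27025 genes. Starts exactly 11 bases apart occurred in 1 window, that of Cish, a distance chosen after its value was seen. Within the 250 bases before the start alone, 1 member (Socs3) held a match, where 8.13% of all genes did. The form with 4 bases between TTC and GAA occurred in 1 of the 3 Bcl2l1 windows and in 6.95% of all windows, and may overlap the other form. A match is a description of letters, and no match says only that they are absent from this window. The remaining members lie at chr1:106538176-106714290 (Bcl2), chr2:152758732-152833803 (Bcl2l1), chr3:95656944-95663179 (Mcl1), chr17:29490785-29496111 (Pim1), chrX:7878306-7883432 (Pim2), chr10:95383903-95417321 (Socs2) and chr11:4236785-4241026 (Osm).

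The values are log2(RPKM + 1), where RPKM is a read count divided by gene length and by library depth. This scale understates changes of low genes. Estimated depths were 1.25e+07 to 2.01e+07 assigned reads in the Th17 libraries and 2.42e+07 to 3.17e+07 in the myeloid libraries. Marker genes of the labelled cells were present. All 8 T cell markers (Cd3e, Cd4 and others) and 4 Th17 markers (Il17a, Il17f, Il23r, Ccr6) reached an RPKM of 1 in every Th17 library, and all 10 monocyte and macrophage markers did so in every myeloid library. The DKI alleles leave no deletion to see in RNA, so transcript levels do not check the genotype labels. The Th17 libraries differed in their other content. Summed monocyte and macrophage markers were 628 to 964 RPKM in the 6 libraries of the CCL17 experiment, 59.5 and 68.3 in the DKI libraries and 163 and 76.8 in the WT libraries. In bulk RNA, fewer cells of a type and less RNA per cell cannot be told apart.

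**Figure D1:**
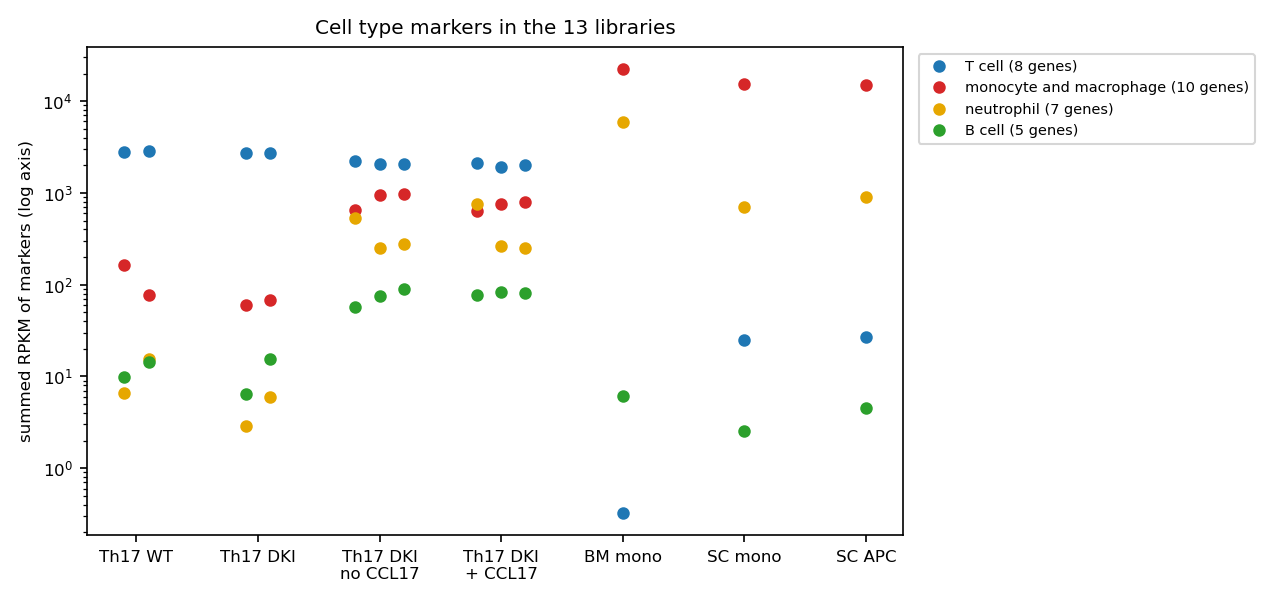
Summed RPKM (log axis) of T cell, monocyte and macrophage, neutrophil and B cell markers, 1 point per library, for the 4 Th17 and 3 myeloid groups. Monocyte and macrophage markers were 628 to 964 RPKM in the 6 CCL17-experiment libraries and 59.5 to 163 in the other 4 Th17 libraries, and T cell markers were 0.326 RPKM in bone marrow monocytes.

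Among the feedback inhibitors, Cish, which encodes the STAT5-induced inhibitor CIS, was the most even member across Th17 libraries. WT libraries had 6.05 and 5.98, and DKI libraries 6.11 and 5.95. The levels were 6.04, 5.92 and 5.92 without CCL17 and 5.72, 6.02 and 5.97 with CCL17. All 10 Th17 libraries lay within 0.40 log2 units, at 51.7 to 68.3 RPKM, which placed Cish between the 87.2 and 89.3 percentile of genes with an RPKM of at least 1. In myeloid cells, Cish was nearly absent in bone marrow monocytes at 0.31, an RPKM of 0.244, and stood at 4.70 in spinal cord monocytes and 4.19 in spinal cord APCs.

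Socs1, an inhibitor of JAK kinases downstream of interferon and common gamma chain receptors, ran 5.91 and 5.89 in WT and 5.56 and 5.74 in DKI cells. It was 5.37, 5.48 and 5.43 without and 5.18, 5.33 and 5.48 with CCL17. Both WT libraries therefore lay above all 8 DKI Th17 libraries, of which those with and without CCL17 came from another set of cultures. With the DKI libraries and those without CCL17 joined, 1862 of 11705 genes lay below WT in every library. That count leaves out the libraries with CCL17, and the share of genes for all 8 was not counted. Bone marrow monocytes had 1.29, spinal cord monocytes 5.63, which is within the Th17 range, and APCs 4.58.

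Socs2, known for limiting growth hormone signalling, was the lowest SOCS member in every group. It was 3.40 and 3.91 in WT, 3.81 and 4.07 in DKI cells, 3.30, 3.27 and 3.33 without CCL17 and 3.12, 3.24 and 3.36 with CCL17. The 4 libraries of the first set, WT and DKI, lay above all 6 libraries of the CCL17 experiment. Of all genes, 29.6% were lower in every library without CCL17 than in both DKI libraries of the first set. That share leaves out WT and the libraries with CCL17, and the share for 4 against 6 libraries was not counted. It read 0.08 in bone marrow monocytes, 2.29 in spinal cord monocytes and 3.00 in APCs, the only member that was higher in APCs than in cord monocytes among those at an RPKM of 5.

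Socs3, the main brake on IL-6 family and G-CSF receptors, varied most. It was 6.64 and 7.09 in WT and 5.67 and 6.76 in DKI cells. It was 5.05, 5.72 and 5.62 without and 5.10, 5.63 and 5.66 with CCL17. The range over all 10 Th17 libraries was 2.04 log2 units, with WT replicate 2 highest and replicate 1 without CCL17 lowest. The myeloid values bracketed the T cells, at 4.30 in bone marrow and 8.97 and 8.70 in the cord.

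Of the survival genes, Bcl2 was higher in the T cells. It was 4.58 and 4.35 in WT, 4.70 and 4.08 in DKI cells, 4.34, 4.96 and 5.0 without CCL17 and 4.25, 5.02 and 5.07 with CCL17. The myeloid libraries had 0.86, 1.52 and 1.51, all far below every Th17 library. In bone marrow monocytes it was below an RPKM of 1.

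Bcl2l1, which encodes BCL-XL, was 5.47 and 5.32 in WT, 5.86 and 5.33 in DKI cells, 5.88, 6.25 and 6.24 without CCL17 and 5.79, 6.09 and 6.15 with CCL17. The CCL17 experiment thus held the higher values, although replicate 1 with CCL17 lay below DKI replicate 1. Bone marrow monocytes had 3.15, and the cord libraries, at 5.79 and 5.36, fell within the T cell range.

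Mcl1, whose short-lived protein is needed by lymphoid and myeloid cells alike, was 7.33 and 7.33 in WT, 6.61 and 7.23 in DKI cells, 6.59, 6.91 and 6.97 without CCL17 and 6.58, 6.92 and 6.92 with CCL17. No DKI Th17 library reached the WT level, and as for Socs1 these DKI libraries come from both sets of cultures. The count of genes given there, which leaves out the libraries with CCL17, stands beside this too. Mcl1 was also the only member whose level in bone marrow monocytes (7.78) lay above every Th17 library, and it was higher again in the cord at 9.58 and 9.17.

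The PIM kinases parted in the spinal cord, where Pim1 lay above and Pim2 below every Th17 library. In bone marrow monocytes both lay below every Th17 library. Pim1 was 7.89 and 8.0 in WT, 7.69 and 7.72 in DKI cells, 7.61, 7.91 and 7.85 without CCL17 and 7.55, 7.79 and 7.88 with CCL17. In RPKM it was the highest member in all 4 Th17 groups, between the 98.0 and 98.6 percentile of expressed genes. It was 7.15 in bone marrow monocytes, 9.57 in cord monocytes and 9.16 in APCs.

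Pim2 was 5.04 and 5.51 in WT, 5.03 and 5.73 in DKI cells, 4.54, 4.99 and 5.02 without CCL17 and 4.53, 4.90 and 4.90 with CCL17. The myeloid libraries had only 1.59, 1.34 and 1.48. Pim2 thus stood at the 79.0 percentile of expressed genes in WT Th17 cells and at the 5.59 percentile in cord monocytes, where Pim1 stood at the 99.3 percentile.

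The cytokine gene Osm was steady in T cells, at 4.41 and 4.47 in WT, 4.60 and 4.25 in DKI cells, 4.54, 4.76 and 4.74 without CCL17 and 4.42, 4.62 and 4.77 with CCL17. It was 4.08 in bone marrow monocytes, 9.07 in cord monocytes and 8.36 in APCs. Its percentile among expressed genes was 54.8 in bone marrow and 98.8 in cord monocytes. The gene of its receptor chain, Osmr, was at most 0.55 in all 13 libraries.

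**Figure D2:**
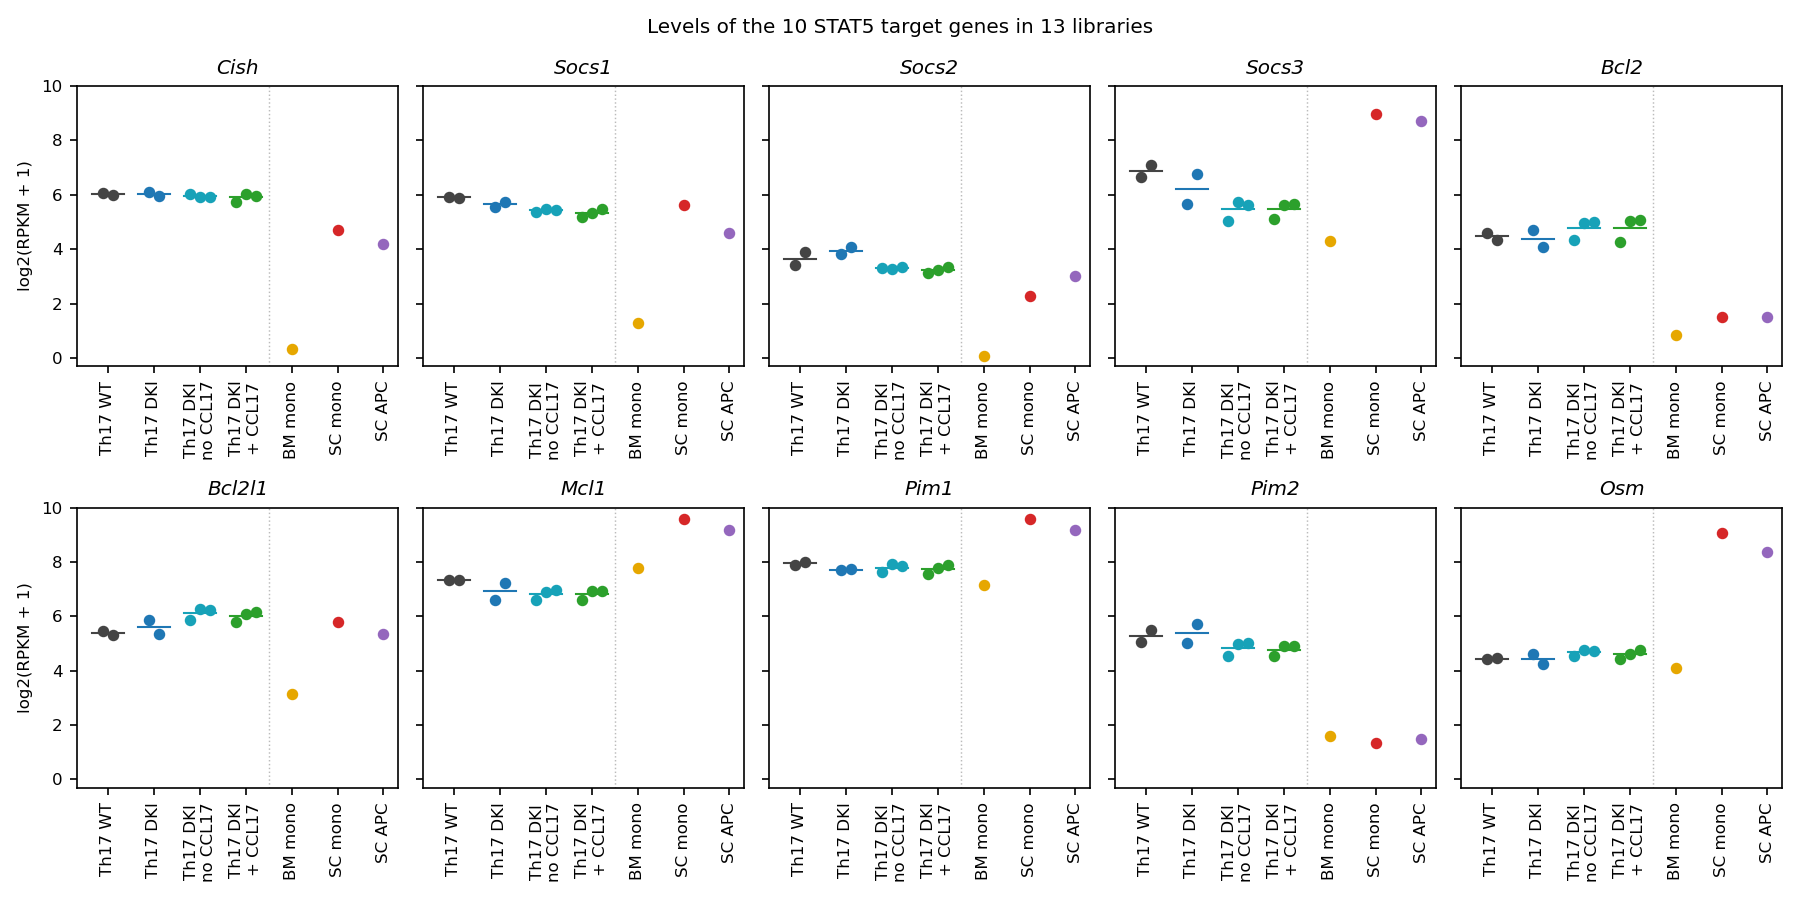
Level of each member as log2(RPKM + 1) in every library, grouped by the 4 Th17 groups and the 3 myeloid groups, with lines at the Th17 group means. Socs3, Mcl1, Pim1 and Osm were highest in the spinal cord libraries, and Bcl2 and Pim2 were far lower in all 3 myeloid libraries than in the 10 Th17 libraries.

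Set against all 10 Th17 libraries, both spinal cord libraries were higher for 4 members (Socs3, Mcl1, Pim1, Osm) and lower for 4 (Cish, Socs2, Bcl2, Pim2). For Bcl2l1 both lay within the T cell range. For Socs1 the cord monocytes (5.63) lay within it and the APCs (4.58) below it. Of 12098 expressed genes, 75.2% did not overlap in this way, 16.4% higher and 58.7% lower in the cord. The bone marrow library was lower than every Th17 library for 9 members and higher for Mcl1, where 54% of 11832 genes were lower, 18.4% higher and 72.5% either. These libraries differ in tissue, culture, toxin and sort as well as in cell type, so these are descriptions with no test.

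Loss of STAT5 tetramers in Th17 cells is addressed by DKI against WT. None of the 10 members passed an adjusted p of 0.05 by limma on log2(RPKM + 1) with Benjamini-Hochberg adjustment over 11078 genes, where 0% (0 genes) passed. At an unadjusted p under 0.05, 0 members and 17% of all genes (1879) were counted. With only the 2 groups in the fit, 645 of the 11078 genes were counted. The members' median log2 fold was -0.05 (4 positive, 6 negative), against 0.03 for all genes tested. Socs1, Mcl1 and Pim1 were lower in both DKI than in both WT libraries, so 3 of 10 members lay apart on the lower side and 0 on the higher, where 20.1% of all genes lay apart on the lower side and 39.9% on either.

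The sizes and their errors differed widely among members. The Cish fold was 0.02 on the log2 scale (SE 0.12, 95% interval -0.25 to 0.28, adjusted p 0.949, limma). Socs1 had a fold of -0.25 (SE 0.11, -0.50 to 0.00, unadjusted p 0.0511, adjusted p 0.295 with limma), the smallest p of the members. The Socs3 fold was -0.65 (SE 0.37, interval -1.50 to 0.20), the largest in size, and DKI replicate 2 lay within the WT range while replicate 1 lay below it. Socs2 had 0.28 (SE 0.16, interval -0.09 to 0.66).

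Mcl1 had a fold of -0.41 (SE 0.21, interval -0.90 to 0.08) and Pim1 one of -0.24 (SE 0.14, interval -0.56 to 0.07). Bcl2l1 had 0.20 (SE 0.20), Pim2 0.10 (SE 0.27), Bcl2 -0.07 (SE 0.33) and Osm -0.02 (SE 0.15). Adjusted p-values of these members ran from 0.351 to 0.958 by limma, and their intervals leave room for differences of either sign. The DKI libraries differed from each other. In DKI replicate 1, Bcl2 and Bcl2l1 were higher and Socs3, Mcl1 and Pim2 lower than in DKI replicate 2. Those 4 Th17 markers summed to 1770 RPKM in DKI replicate 1 and 244 in replicate 2, against 627 and 634 in WT, and their part in the result was not tested. Monocyte and macrophage markers (7 of 8 tested with a negative fold, median -0.96) also moved with this comparison, with none called, and their part in the result was not tested. Without DKI replicate 2 the count over all genes was 580, without WT replicate 2 it was 123, without DKI replicate 1 it was 4 and without WT replicate 1 it was 0, with 0 members each time. Each of these fits leaves 1 library in a group, which is assumed to vary like the other Th17 libraries.

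Genes around the members gave the same count. Of the JAK-STAT5 upstream genes (14 of 17 tested), the other SOCS and JAK-STAT inhibitors (15 of 15), the other BCL2 family genes (13 of 16), the PIM and OSM partners (4 of 7) and the other STAT5 response genes (12 of 13), none passed an adjusted p of 0.05 in limma. Their median log2 folds were -0.09, -0.05, 0.16, -0.08 and -0.08. The smallest adjusted p belonged to Bcl6, a repressor that STAT5 is known to restrain in T helper cells (fold -0.77, SE 0.13, adjusted p 0.0930, limma). Stat5a had a fold of -0.05 (SE 0.15) and Stat5b one of -0.30 (SE 0.10, adjusted p 0.212, limma). Il6st, the signalling chain that OSM and IL-6 receptors share, had -0.90 (SE 0.27, adjusted p 0.170, limma), and Il2ra, the high-affinity IL-2 receptor chain, had 0.37 (SE 0.13, adjusted p 0.212, limma). The 146 genes with 2 or more GAS matches had 44 tested, 0 called and a median of 0.04, against 0.03 for all genes with a promoter in the table.

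**Figure D3:**
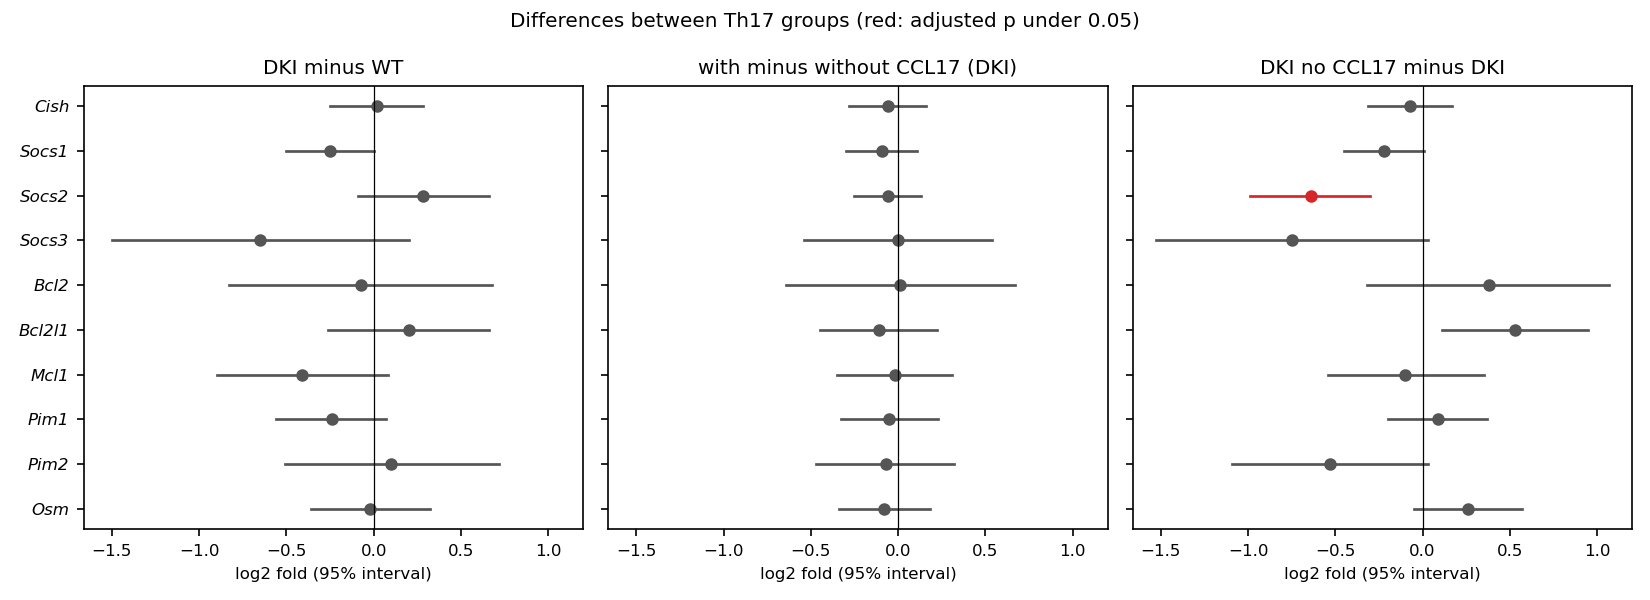
Log2 fold of each member with its 95% interval from limma in the 3 Th17 comparisons, with adjusted p under 0.05 in red. The intervals of DKI minus WT and of CCL17 reach 0 for every member, and Socs2 (-0.64, between the sets of DKI cultures) is the only red point.

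The effect of CCL17 during expansion was compared in the 6 DKI libraries of that experiment. No member passed the threshold. limma called 0 of 10 members and 0% of 11297 genes (0), and 0 members and 3.64% of genes (411) had an unadjusted p under 0.05. That count over all genes was 177 to 928 with 1 library left out, highest without replicate 1 of the cells without CCL17 and 694 without replicate 1 of the cells with it. The folds ran from -0.11 (Bcl2l1, SE 0.14) to 0.01 (Bcl2, SE 0.27), with a median of -0.06 against -0.01 for all genes, and every adjusted p was 0.999 by limma. The groups overlapped for all 10 members, where 9.49% of genes did not overlap.

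In the fit without a replicate block, the 95% interval was -0.25 to 0.13 for Socs2, -0.28 to 0.16 for Cish and -0.30 to 0.11 for Socs1. For Socs3 it was -0.54 to 0.54 and for Bcl2 -0.64 to 0.67, the widest. Mcl1 had a fold of -0.02 (-0.35 to 0.31), Pim1 -0.05 (-0.33 to 0.23), Pim2 -0.07 (-0.47 to 0.32) and Osm -0.08 (-0.34 to 0.18). Replicate 1 was the lowest library of its group, both without and with CCL17, for 8 of 10 members, as it was for 33.7% of genes. Bcl2 in replicate 1 lay 0.64 below the mean of replicates 2 and 3 without CCL17 and 0.79 below with it, and Socs3 lay 0.62 and 0.55 below. Replicate 1 also had the lowest summed Th17 markers (1690 without CCL17 and 1360 with it, against 3200 to 3350) and the highest neutrophil markers (535 and 757 against 249 to 279), and their part in the result was not tested.

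Same-numbered libraries deviated together, and the replicate number was also used as a block. It gave 2 called genes of 11297 (0.0177%) with limma, neither of them a member, and 1524 genes at an unadjusted p under 0.05, with Bcl2l1 the only member among them. Bcl2l1 then had the same fold of -0.11 with an SE of 0.04 (adjusted p 0.306, limma). The SE of Bcl2 went from 0.27 to 0.05 and that of Socs3 from 0.22 to 0.05. Within the numbered pairs Bcl2 differed by -0.09, 0.06 and 0.07, and Socs3 by 0.04, -0.09 and 0.04. Replicates 2 and 3 correlated as closely with the other number as with their own, so the pairing sets replicate 1 apart and does not tell 2 from 3. Bcl2l1 and Pim2 were lower with CCL17 in 3 of 3 same-numbered pairs, as were 20.1% of genes, and the other members differed in sign between pairs. Of the surrounding lists none held a called gene. Bcl2a1a, Bcl2a1b and Bcl2a1d, anti-apoptotic BCL2 relatives, had folds of -0.22, -0.21 and -0.21. Monocyte and macrophage markers had a negative fold for 9 of 10, with a median of -0.20. B cell markers had a positive fold for 5 of 5 (median 0.15) and neutrophil markers for 5 of 6 (median 0.13). None of these markers was called, and their part in the result was not tested.

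The DKI cells cultured without CCL17 and the DKI cells of the first set carry the same alleles and no CCL17, and differ as sets of cultures. Their comparison shows how far the members move without a change of genotype, and it shares the DKI libraries with the comparison against WT. Socs2 fell by 0.64 on the log2 scale in the CCL17 experiment (SE 0.15, interval -0.99 to -0.30, adjusted p 0.0126, limma), from a mean of 3.94 ± 0.18 (SD, n = 2) to 3.30 ± 0.03 (SD, n = 3). It was the only member called, 1 of 10, where 33.2% of 11507 genes (3823) were called. Of the genes called, 1777 were higher and 2046 lower, or 1448 and 2580 after quantile normalization.

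The other members did not pass the threshold in this fit, although Socs1 did after quantile normalization (-0.27, adjusted p 0.0465, limma). Socs3 and Pim2 passed with the replicate number as a block, although no label pairs libraries of these sets. Socs3 had a fold of -0.75 (SE 0.34), Pim2 -0.53 (SE 0.25), Bcl2l1 0.53 (SE 0.18), Bcl2 0.38 (SE 0.30), Osm 0.26 (SE 0.14) and Socs1 -0.22 (SE 0.10), with adjusted p-values from 0.0563 (Bcl2l1) to 0.378 (Bcl2) by limma. Mcl1 had -0.10, Pim1 0.09 and Cish -0.07. Bcl2l1 lay apart on the higher side and Socs1, Socs2 and Pim2 on the lower, 4 of 10 members, where 55.6% of genes lay apart on either side and 29.6% on the lower. The members' median fold was -0.08, against -0.01 for all genes.

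The count of members called changed with single libraries. Without DKI replicate 2, 0 members passed and Socs2 had -0.52 (adjusted p 0.0732, limma). Without DKI replicate 1, 4 members passed, with folds of -1.3 for Socs3, 0.79 for Bcl2l1 and -0.88 for Pim2 beside Socs2. Both fits rest on 1 DKI library, which is assumed to vary like the other Th17 libraries. Without replicate 1 of the cells cultured without CCL17, Bcl2l1 passed as well (0.65). Markers of other cells moved with this comparison. Neutrophil markers summed to 249 to 757 RPKM in the 6 libraries of the CCL17 experiment and 2.91 to 15.5 in the other 4 Th17 libraries, B cell markers to 57.1 to 90.1 against 6.45 to 15.5, and T cell markers to 1930 to 2210 against 2700 to 2860. Their part in the results for the members was not tested.

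Genes around the members were also called between the sets of cultures. The counts by list stand beside 33.2% of all genes called, and nothing particular to a list is read from them. Of the JAK-STAT5 upstream genes 7 of 14 were called, 4 higher and 3 lower. Csf2rb (3.26, SE 0.37), the gene of the shared GM-CSF receptor chain, and its near-identical relative Csf2rb2 (3.07, SE 0.29) rose. Jak3, the kinase of the common gamma chain, fell by 0.85 (SE 0.09). Of the other BCL2 family genes 5 of 13 rose and 0 fell, among them Bcl2a1a (2.61, SE 0.33) and Bcl2a1b (1.21, SE 0.19), whose near-identical copies make the split of reads between them uncertain, and the death effector Bax (0.28, SE 0.08). Of the PIM and OSM partners Pim3 (0.66, SE 0.16) and Il6 (1.6, SE 0.48) rose, 2 of 4. Of the inhibitors 4 of 15 were called, with Socs5 (-0.51, SE 0.12) and the ubiquitin ligase gene Cbl (-0.49, SE 0.11) lower, and of the STAT5 response genes 5 of 12, with the lymphotoxin gene Ltb (-0.97, SE 0.17) lower and Il2ra (0.46, SE 0.12) higher. The lists' median folds, in the same order, were -0.03, 0.14, 0.78, -0.05 and -0.30. Csf2rb is also a gene of monocytes, with a level of 7.31 in cord monocytes against 0.89 and 2.31 in the DKI Th17 libraries.

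Monocytes of the inflamed spinal cord were compared with those of the bone marrow in DKI mice. The feedback genes and Osm were far higher in the cord, and Bcl2 and Pim2 were near the floor in both. With 1 library each there is no test, and a gene was counted where its RPKM was at least 5 in either library and the log2 difference was at least 2 (4-fold). Of the 7 members at that minimum, 6 were more than 4-fold higher in the cord and 0 lower, where 6.23% of 8182 genes were that much higher and 11.4% differed either way (5.13% lower). Cish and Socs1 reached the minimum only through the cord library, where they are high, so they had to be higher there and the count is a description. Osm, Socs3, Bcl2l1, Mcl1 and Pim1 reached it in both libraries. The median difference of all genes at the minimum was -0.37 on the log2 scale.

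In RPKM, Osm was 33.7-fold higher (95% interval 31.8 to 35.8), at 535 against 15.9 RPKM, and had rank 79 from the top of the 8182 genes. Socs3 was 26.9-fold higher (25.6 to 28.4) and Socs1 33.5-fold higher (28.3 to 40.3). Cish was 103-fold higher (71.4 to 156), with about 28 reads behind its bone marrow value. The 4 had log2 differences of 4.99, 4.68, 4.34 and 4.39. The intervals cover counting error of the estimated reads only, since PCR copies are not independent molecules and animals were not replicated.

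The survival genes and Pim1 had smaller differences. Bcl2l1 was 6.89-fold higher (6.35 to 7.49), Pim1 5.37-fold (5.27 to 5.48) and Mcl1 3.49-fold (3.44 to 3.54), the member at the minimum that did not reach 4-fold. The remaining members were under the minimum. Socs2 was 67.9-fold higher (28.3 to 207), with about 5 reads in the marrow library, Bcl2 2.30-fold higher (1.96 to 2.70), and Pim2 1.31-fold lower with an interval that includes no change (0.892 to 1.95). Centring both libraries on their medians moved all differences up by 0.30, which took Mcl1 past 4-fold (7 of 7 members), turned the Pim2 difference from -0.25 to 0.06 and changed the genes past 4-fold from 510 higher and 420 lower to 602 and 319.

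**Figure D4:**
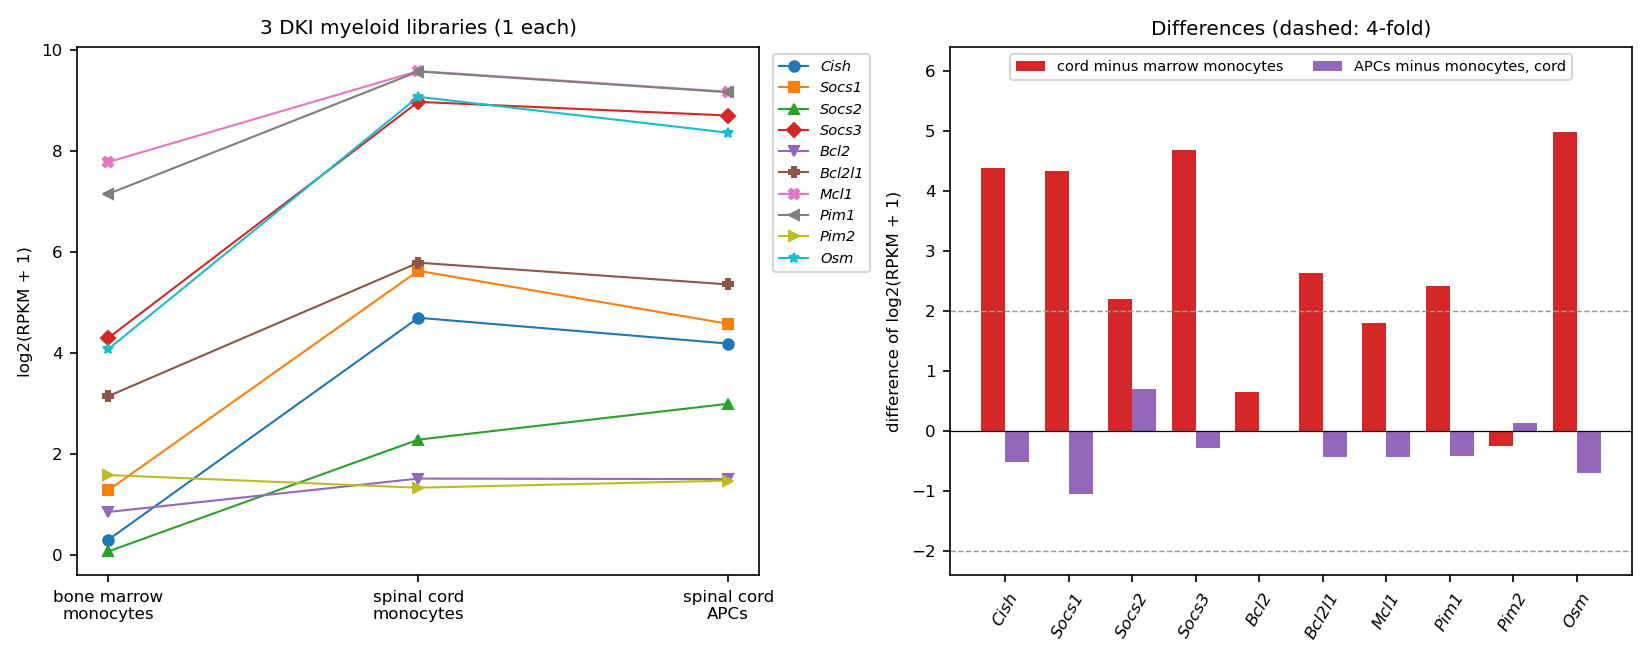
Left, levels of the members as log2(RPKM + 1) in the 3 DKI myeloid libraries, 1 library each. Right, differences of log2(RPKM + 1) between spinal cord and bone marrow monocytes (red) and between spinal cord APCs and monocytes (purple), with dashed lines at 4-fold. Osm (4.99), Socs3 (4.68), Cish (4.39) and Socs1 (4.34) have the tallest red bars, and Socs1 (-1.05) has the lowest purple bar.

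Beside 6.23% of all genes more than 4-fold higher and 5.13% lower, the surrounding lists gave these counts. Of the genes named here, Dusp2, Il7r, the Bcl2a1 copies, Il6, Lif and Cd83 reached the minimum only through the cord library. They had to be higher there, so the counts and medians of the lists are descriptions. Of the other SOCS and JAK-STAT inhibitors, 1 of 14 was more than 4-fold higher in the cord (the phosphatase gene Dusp2, 3.92 on the log2 scale), and their median was -0.36. Among the JAK-STAT5 upstream genes 2 of 12 were 4-fold higher, Il7r (5.39) and Il2rg (2.21), with a median of 0.44. Both Stat5 genes were lower in the cord, Stat5a at 2.95 against 3.99 and Stat5b at 3.75 against 5.11. Of the other BCL2 family genes 4 of 12 were higher, Bcl2a1b (7.20), Bcl2a1a (5.67), Bcl2a1d (5.47) and Pmaip1 (3.17), which encodes the MCL1 antagonist NOXA, with a median of 0.89. Of the PIM and OSM partners 3 of 5 were higher, Il6 (4.24), Pim3 (3.84) and Lif (3.39), with a median of 3.39, while Il6st was lower (-1.67). Of the STAT5 response genes 3 of 6 were higher and 1 lower, led by Cd83 (6.55) and Id2 (3.21), with Ccnd3 lower (-2.82).

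Markers of other cells differed between these libraries. T cell markers summed to 0.326 RPKM in bone marrow and 25.2 in cord monocytes (0 and 8 of 8 at an RPKM of 1, with Cd3e and Cd4 at 0 in bone marrow), microglia markers to 11.1 and 119, and neutrophil markers to 5910 and 698. The T cell sum of the cord monocytes was 0.879% to 1.3% of that in the Th17 libraries. Their Cish RPKM was 36.7% to 48.5% and their Socs1 RPKM 82.1% to 138% of the Th17 values. The part of T cell, neutrophil and microglia RNA in the differences was not tested.

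Within the spinal cord, the members differed by less than 4-fold between APCs and monocytes. Of 8 members at the minimum, 0 passed 4-fold, where 0.32% of 7499 genes did, so this count says little about the members. In APCs 7 of 8 were lower, against 3371 lower and 4127 higher among all genes, whose median difference was 0.03. Socs1 was 2.11-fold lower (interval 1.99 to 2.24) and Osm 1.63-fold lower (1.6 to 1.66). Cish was 1.45-fold, Bcl2l1 1.35-fold, Mcl1 and Pim1 1.33-fold and Socs3 1.21-fold lower. Ranked from the lowest difference of the 7499 genes, Socs1 was at 64, Osm at 182 and Cish at 353. Bcl2l1 was at 495, Mcl1 at 523, Pim1 at 530 and Socs3 at 977, and Socs2 was at 226 from the highest. Socs2 was 1.80-fold higher (1.55 to 2.09), at 7.01 against 3.90 RPKM, and reached the minimum only through the APC library.

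Bcl2 (-0.01) and Pim2 (0.14) stayed under the minimum. Each of the surrounding lists had 0 members past 4-fold except the STAT5 response genes, where 1 of 7, Ccl17, was 7.72-fold higher in APCs (4.88 to 12.3). Ccl17 reached the minimum only through the APC library, so it had to be higher there. The lists' medians ran from -0.24 to -0.02. Dendritic cell markers summed to 145 RPKM in APCs and 36.4 in cord monocytes, microglia markers to 351 and 119, neutrophil markers to 892 and 698, and T cell markers to 27.2 and 25.2. Of the neutrophil markers at the minimum 4 of 4 were higher in APCs, 2 of them past 4-fold, with a median of 1.35. The monocyte marker Ly6c2 was 4.77-fold lower in APCs (4.62 to 4.92), and the 10 monocyte and macrophage markers had a median of -0.05. Their part in these differences was not tested.

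Over the 13 libraries, the genes with the pattern most like a member's were sought by Pearson's r of log2(RPKM + 1), as a description, since the libraries share cell types. Runx3 and Adora2a were most like Cish (r 0.994 for both), with Traf1 next (0.991). Nefm (0.996), Edn1 (0.995) and Podxl (0.994) were most like Osm. Ski (0.987) was most like Socs3, Csrnp1 (0.992) most like Pim1, Nfkb2 (0.986) most like Bcl2l1 and Foxj3 (0.995) most like Bcl2. Within the 10 Th17 libraries alone, other genes came first, Clstn1 (0.869) for Cish, Zfp36 (0.986) close behind Pard6g (0.988) for Socs3, and Rel (0.983) for Bcl2.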

How the data were processed

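RNA was sequenced in 13 mouse libraries. An RNeasy column and the KAPA mRNA HyperPrep kit were used, per the labels' protocols. Reads were handled with Subread and featureCounts on mouse build mm10, per the submitters' processing notes, which give no versions. The deposited file gave log2 values, log2(RPKM + 1), per gene and library, as made by the authors. Base 2 was checked on the values, since length-weighted sums were about 1.03e+06 to 1.071e+06 per library in base 2 and 7.809e+06 to 1.474e+07 in base e. The value 0.0001 stood for no reads and was set to 0. The column used for APCs is named for monocyte-derived cells and was matched through that sample's source name.

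Assigned reads were estimated from genes with 1 transcript and up to 5 reads, where 73.6% to 78.5% of values lay within 0.1 reads of a whole number (20% if spread evenly). Intervals in the myeloid libraries are exact binomial (Clopper-Pearson) on these reads.

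Members and lists were chosen with earlier results of these data known. A Th17 marker is not reported here and was left out of its list. limma 3.58.1 in R 4.3.3 (eBayes with trend) was run on genes with RPKM of at least 1 in at least 2 libraries (3 for CCL17), with Benjamini-Hochberg adjustment over all of them and a threshold of 0.05. A fit of all 10 Th17 libraries gave the contrasts with WT and between the sets of DKI cultures, and the CCL17 comparison used its 6. The fit was tested on simulated data with independent noise in each library. That setting lacks the shared deviation of same-numbered libraries given next, so it does not cover it. In the CCL17 experiment same-numbered libraries deviated together (r 0.769, 0.506 and 0.513 across genes), so there the replicate number was used as a block, from the data and not the labels. Replicates 2 and 3 correlated as closely when crossed (0.511 and 0.487).

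All 10 members are named in every comparison, and up to 4 genes per surrounding list by smallest p or largest difference, with Stat5a, Stat5b, Osmr, Bcl2a1 copies and the genes shown for contrast named beyond that rule after their values were seen. Alternatives were the replicate block, pseudocount, filter, scaling, trend, the libraries in the fit, each library left out, the fold threshold and the promoter window.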

Additional observations from a re-analysis of the deposited data

How the results depend on the processing

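Of the members' folds and differences, 235 kept direction and side of the threshold under the planned and added settings, 14 moved (all in the myeloid comparison of cord and marrow, by pseudocount 0.1 or median centring), 3 came to pass the threshold and 8 changed sign. The sign changes were Cish -0.02 with quantile normalization and, with the DKI libraries of both sets joined against WT (chosen after seeing the data), Cish -0.02, Socs2 -0.10, Bcl2 0.15, Pim2 -0.21 and Osm 0.14, where Socs1 had -0.38 (adjusted p 0.0811, limma) and Socs3 -1.10 (0.0958). For CCL17 they were Socs3 0.02 and Mcl1 0.03 with quantile normalization. These 8 are from the Th17 comparisons only. The Pim2 difference between cord and marrow also changed sign with median centring and is not among them. Leaving out each library gave, for DKI against WT, 0 to 580 called genes and folds of -0.07 to 0.10 (Cish), -0.39 to 0.24 (Bcl2), -0.06 to 0.46 (Bcl2l1), -0.25 to 0.45 (Pim2) and -0.19 to 0.16 (Osm). For CCL17 it gave -0.12 to 0.03 (Cish), -0.21 to 0.18 (Socs3), -0.20 to 0.28 (Bcl2), -0.14 to 0.09 (Mcl1), -0.14 to 0.05 (Pim1), -0.23 to 0.05 (Pim2) and -0.16 to 0.02 (Osm). Between the sets of DKI cultures it gave 0 to 4 called members, 2513 to 3526 called genes, and folds of -0.15 to 0.02 (Cish) and -0.41 to 0.21 (Mcl1). Quantile normalization called 7 genes for DKI against WT and 2 members between the sets (Socs1 -0.27, adjusted p 0.0465, limma), the joined DKI libraries 1 gene against WT, and the fit of only those 2 sets 2423 genes. The replicate block called 2 genes for CCL17, 0 genes and 0 members for DKI against WT, and 3 members between the sets (Socs3 -0.84, Pim2 -0.60 and Socs2), and changed no other count of members. Same-numbered WT and DKI libraries correlated at 0.455 over 2 pairs, and crossed ones at -0.455. With 2 libraries a group these values mirror each other, so they cannot show whether the numbers pair, and no label pairs them. A 2-fold threshold counted 2494 genes between cord and marrow, and 187 genes with 1 member between APCs and monocytes. Restricting promoters to the 250 bases before the start left 1 member with a match, where 8.13% of all genes held a match. The cause of these changes was not tested. Myeloid groups have 1 library each, and few reads limit Cish and Socs2 in bone marrow.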
